A study of Mus musculus with 5 samples.

Results

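Solute carriers are the membrane proteins that move sugars, amino acids, ions, metals and metabolites across cell membranes. Their messenger RNAs were compared between adult mouse retina and newborn mouse cortex. The genes taken were those whose single symbol in the platform annotation starts with Slc and a digit, or with Slco, the organic anion transporters. This gave 167 genes on 212 probes, of which 160 genes, on 202 probes, had a value on all 5 arrays, out of 8798 named genes measured in all. The RefSeq table of assembly GRCm38.p6 lists 389 protein-coding genes with such symbols, so the measured genes are 41.1% of the group.

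The study hybridised total RNA from 2 pools to 5 two-colour Agilent arrays. One pool was retina of adult C57/B6 mice, labelled with the red dye Cy5, and the other was cortex of Swiss-Webster mice taken on postnatal day 1, labelled with the green dye Cy3. Age, strain, tissue and dye therefore changed together and cannot be told apart, and no dye swap was made. Each tissue was 1 pool, and the labels call the arrays technical replicates. The p-values below thus measure the spread between arrays of the same pools, not that between animals. In pooled tissue, fewer cells of a type and less RNA per cell cannot be told apart.

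Values are log2 ratios of retina over cortex, given per array or as mean ± SD over n = 5 arrays. A ratio of 0 means equal signal. Both the log base of the deposited values and the direction of the ratio are likely rather than stated. If the direction were turned, every sign below would turn with it. Spot brightness was not used here, so a ratio near 0 may also come from a gene with little signal in either pool. A gene counts as higher, or lower, in retina where limma's test against a minimum of 2-fold had a Benjamini-Hochberg adjusted p under 0.05 over all 8798 genes, here named the 2-fold test.

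The defining markers of both tissues followed the labels. All 4 measured rod and cone genes (Cdhr1, Cngb1, Opn1sw and Otx2) were higher in retina, at 2.97 to 4.30, and all 5 immature cortical neuron genes (Dcx, Neurod6, Gap43, Sox11 and Tubb2b) were lower, at -3.99 to -2.69. Of markers of other cells that the pieces could hold, 3 of 4 choroid plexus and meninges genes were lower and 2 of 3 vessel genes were higher in retina. Of the Müller glia and astrocyte genes, Dkk3 (2.69 ± 0.08) and Clu (2.18 ± 0.15) were higher and Glul (0.71 ± 0.09) did not pass. The bipolar cell gene Gng13 was higher at 3.37 ± 0.08. The red cell gene Hbb-b2 was lower at -1.66 ± 0.07, as was Ttr, of pigment epithelium and choroid plexus, at -1.40 ± 0.04.

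The families are grouped by what they carry. Carriers of the plasma membrane use the sodium gradient, the proton gradient or the gradient of the substrate itself, while members in organelles supply synaptic vesicles, the Golgi apparatus, lysosomes and mitochondria. In the retina, photoreceptors burn much glucose to lactate, and sugar, lactate and taurine carriers serve that exchange with the pigment epithelium and Müller glia. In the newborn cortex, neurons still grow, and the chloride carriers that later set the inhibitory action of GABA are at an early stage.

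Most solute carrier genes differed little between the pools, and 13 of the 160 were called. Of these, 6 were higher in retina: Slco4a1, Slc25a33, Slc6a6, Slc12a5, Slc2a1 and Slc38a9. Another 7 were lower: Slc35f1, Slc38a5, Slc6a15, Slc39a8, Slc8a1, Slc22a23 and Slc7a1. The 13 calls make 8.12% of the solute carrier genes, against 6.63% of all genes tested. The higher calls were 3.75% against 2.8% of all genes, and the lower calls 4.38% against 3.83%. These shares lie near the background of all genes tested. The median over the 160 genes was 0.01, that over all genes was -0.0048, and the interquartile range ran from -0.24 to 0.18 against -0.30 to 0.23. In 120 of the 160 genes the mean ratio lay within 0.5 of 0, against 6334 of all 8798 genes.

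Against a ratio of 0 instead of 2-fold, limma called 111 of the 160 genes at an adjusted p under 0.05, 58 above 0 and 53 below 0. That is 69.4%, against 73.7% of all genes (37% above 0 and 36.7% below 0), and shows how small a ratio the 5 arrays resolve. In 107 of the 160 genes (66.9%) no array differed in sign from the others, against 73.5% of all genes. Between arrays, the median SD was 0.0936 for solute carrier genes and 0.0852 for all genes.

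**Figure D1:**
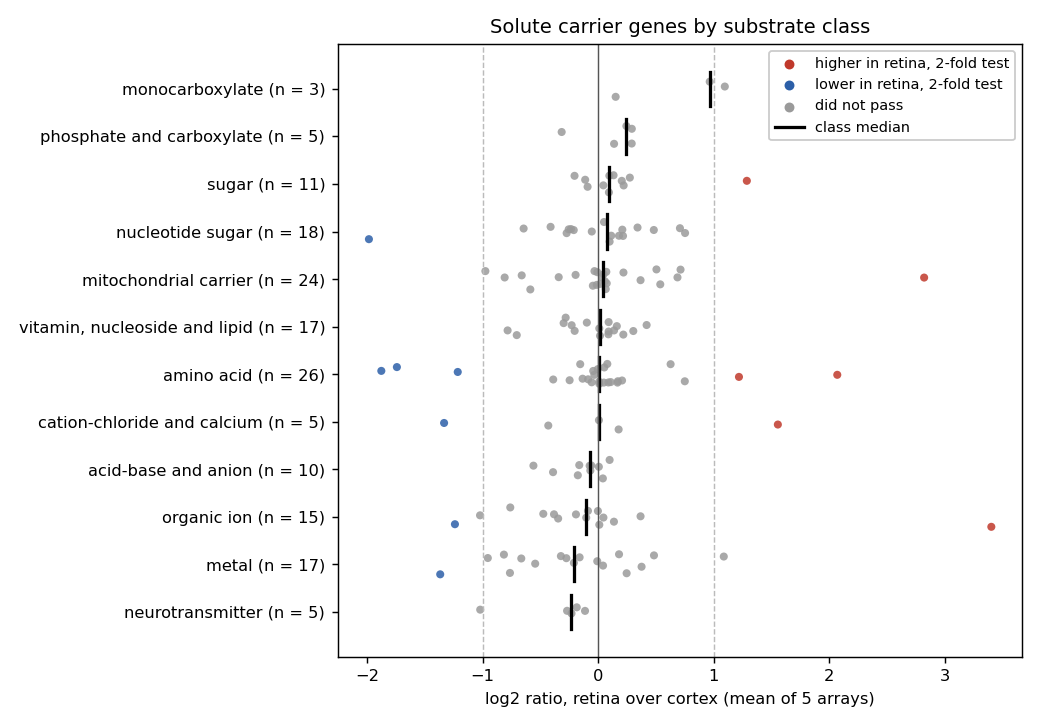
Mean log2 ratio of retina over cortex of each measured solute carrier gene (points, n = 5 arrays), by substrate class, with class medians as black bars and dashed lines at 2-fold. Most points lie between the dashed lines, and the 13 coloured genes, which passed the 2-fold test, are spread over 7 classes with medians from -0.21 to 0.10.

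The promoters of called genes are shown because they are the nearest regulatory sequence to each change, although RNA levels say nothing of their activity. The 250 bases before the start of 4 genes follow, from RefSeq, build GRCm38.p6, 5′ to 3′ on the gene's strand. Slco4a1 and Slc25a33 had the highest ratios and Slc35f1 the lowest. Among called genes with a promoter sequence, only Slc39a8, also lower, had an ACAAAG match. Where a gene had several starts, as Slco4a1 and Slc39a8 did, only the first listed was read. Capitals mark matches, on either strand, to TAATCC (the core bound by Otx2 and Crx), ACAAAG (the core of Sox factors), TATAAA (the TATA box), CCAAT (the box bound by NF-Y) and GGGCGG (the GC box).
Slco4a1 (chr2:180455995-180456244, plus strand): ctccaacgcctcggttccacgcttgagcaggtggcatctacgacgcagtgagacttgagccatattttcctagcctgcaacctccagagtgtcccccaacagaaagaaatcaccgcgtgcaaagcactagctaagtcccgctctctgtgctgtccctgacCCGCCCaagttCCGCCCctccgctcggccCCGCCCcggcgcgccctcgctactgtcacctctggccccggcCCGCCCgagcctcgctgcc
Slc25a33 (chr4:149774268-149774517, minus strand): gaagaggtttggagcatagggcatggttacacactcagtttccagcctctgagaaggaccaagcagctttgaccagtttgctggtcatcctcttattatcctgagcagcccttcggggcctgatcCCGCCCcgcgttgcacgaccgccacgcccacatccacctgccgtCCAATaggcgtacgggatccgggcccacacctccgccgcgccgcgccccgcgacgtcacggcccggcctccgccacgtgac
Slc35f1 (chr10:52690251-52690500, plus strand): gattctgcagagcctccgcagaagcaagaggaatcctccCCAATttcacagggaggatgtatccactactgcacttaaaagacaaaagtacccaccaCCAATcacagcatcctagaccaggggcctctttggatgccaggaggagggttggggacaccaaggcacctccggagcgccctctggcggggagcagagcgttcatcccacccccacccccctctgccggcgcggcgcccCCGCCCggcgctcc
Slc39a8 (chr3:135825029-135825278, plus strand): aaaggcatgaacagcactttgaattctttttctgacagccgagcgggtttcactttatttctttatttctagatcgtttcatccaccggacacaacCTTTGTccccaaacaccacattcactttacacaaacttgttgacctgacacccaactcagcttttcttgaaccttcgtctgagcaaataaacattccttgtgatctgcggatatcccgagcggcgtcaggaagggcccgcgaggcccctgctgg

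The promoter table held 127 of the 160 genes, among them 5 of the 6 higher and 6 of the 7 lower ones, all but Slc6a6 and Slc6a15. TAATCC occurred in 0 of the 11 called promoters, in 6.30% of the 127 and in 5.01% of the 7126 tested genes with a promoter. ACAAAG was found in 1 of 6 promoters of lower genes, 0 of 5 of higher genes and 11.4% of all. GGGCGG occurred in 4 of 5 promoters of higher genes, in 4 of 6 of lower genes and in 59.6% of all tested genes. The promoters of Slco4a1, which was higher, and Slc22a23, which was lower, each held 4 matches. CCAAT was in 2 of 5 and 1 of 6, against 36.02% of all, and TATAAA in none of the 11, against 6.53%. A match is a description of letters, not of a bound site.

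Amino acid carriers held 5 of the 13 calls, 2 higher and 3 lower among 26 measured genes, and their median was 0.01. Over all genes tested, 2.8% were called higher and 3.83% lower. Slc6a6 encodes the taurine transporter, which supplies the amino acid that photoreceptors hold in large amounts. On arrays 1 to 5 it read 2.07, 1.86, 2.17, 2.09 and 2.17, or 4.20-fold higher in retina on average (2.07 ± 0.13, adjusted p of limma 1.39e-05). Array 2 was the lowest, and all arrays lay well beyond 2-fold. Its 4 probes read 0.94, 2.39, 2.47 and 2.48, so all were above 0 and 1 of them lay under 2-fold. Slc6a15, a neutral amino acid transporter of neurons in the same family, read -1.78, -1.74, -1.75, -1.74 and -1.70, or 3.35-fold lower (-1.74 ± 0.03, adjusted p 1.67e-06). Its 5 arrays lay close together. That they were below every array of Slc6a6 adds nothing to the 2 calls in opposite directions.

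The SLC38 family of glutamine and related carriers also split. Slc38a9, the lysosomal arginine sensor that signals to mTORC1, read 1.16, 1.28, 1.21, 1.26 and 1.19, or 2.33-fold higher (1.22 ± 0.05, adjusted p of limma 1.98e-03). Its 2 probes stood at 0.50 and 1.94, and with the lower alone the gene did not pass. Slc38a5, a glutamine carrier of glia and vessels, read -1.99, -1.68, -1.84, -1.77 and -2.12, or 3.68-fold lower (-1.88 ± 0.18, adjusted p 1.57e-04). No array of one overlapped the other, which calls in opposite directions make nearly certain. The other 7 measured SLC38 genes did not pass, from Slc38a2, a glutamine carrier, at -0.39 ± 0.11 to Slc38a3, the glial glutamine carrier, at 0.75 ± 0.05.

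Slc7a1, the carrier of arginine and lysine, read -1.31, -1.18, -1.27, -1.18 and -1.14, or 2.32-fold lower (-1.22 ± 0.07, adjusted p of limma 4.73e-03). With the arrays scaled to the same spread its adjusted p was 0.0977. Its relatives Slc7a2 (-0.00 ± 0.20) and Slc7a3 (0.01 ± 0.06), which carry the same amino acids, did not pass. The creatine transporter Slc6a8 stood at 0.63 ± 0.07 and did not pass. Slc3a2, the heavy chain that pairs with SLC7 carriers, stood at 0.05 ± 0.23. Slc7a6, one of its partners, had 5 probes from -0.77 to 0.68, which differed in sign. The other amino acid genes that did not pass lay between -0.25 and 0.21.

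Organic ion carriers, which take up steroid conjugates, thyroid hormone and drugs, held the highest solute carrier gene. Slco4a1 read 3.50, 3.45, 3.49, 3.29 and 3.29, or 10.6-fold higher in retina (3.41 ± 0.11, adjusted p of limma 2.04e-07). Arrays 4 and 5 were its lowest, and all 5 stood above every array of any other solute carrier gene. The other 6 SLCO genes did not pass, and 5 of them lay below 0. Slco3a1, which carries prostaglandins and thyroid hormone, stood at -1.02 ± 0.21, with probes at -1.79 and -0.26, and with the lower one alone it passed as lower with an adjusted p of 6.72e-06. Slco4c1, an organic anion carrier, stood at -0.38 ± 0.16 and Slco2b1, which carries steroid sulfates, at -0.10 ± 0.07.

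In the SLC22 family, Slc22a23, a carrier of unknown substrate, read -1.26, -1.27, -1.29, -1.27 and -1.12, or 2.36-fold lower (-1.24 ± 0.07, adjusted p of limma 2.74e-03). Only array 5 stood apart, closer to 0. The carnitine carrier Slc22a5 (-0.76 ± 0.34) and the lipocalin receptor Slc22a17 (-0.48 ± 0.01) lay on the same side but did not pass. The remaining measured member, Slc22a7, lay above 0 on all 5 arrays, at 0.37 ± 0.07, and did not pass either. Over the 15 organic ion carriers the median was -0.10, with 1 higher and 1 lower.

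**Figure D2:**
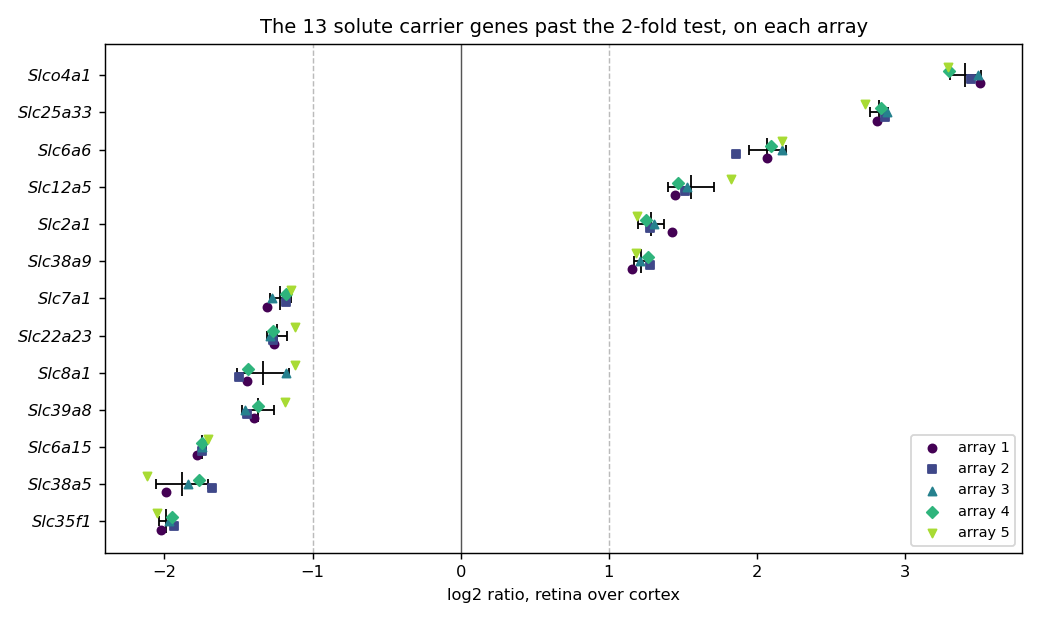
Log2 ratio of retina over cortex on each of the 5 arrays (symbols) of the 13 called solute carrier genes, with mean and SD as black bars and dashed lines at 2-fold. All arrays of a gene lie beyond the same dashed line, and array 5 is the symbol farthest from the rest for Slc12a5 and Slc22a23.

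Among mitochondrial carriers 1 of 24 was called, against 6.63% of all genes tested. Of the 24, 15 lay within 0.5 of 0, against 6334 of all 8798 genes. Slc25a33, which brings pyrimidine nucleotides into mitochondria, read 2.81, 2.86, 2.88, 2.84 and 2.73, or 7.08-fold higher in retina (2.82 ± 0.06, adjusted p of limma 1.65e-07). The other 23 genes of the SLC25 family did not pass, and the class median was 0.04. Slc25a36, the other pyrimidine nucleotide carrier, stood at -0.01 ± 0.12, with its 2 probes at -0.15 and 0.13.

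Several genes of the family stood below 2-fold but on one side of 0 throughout. The ADP/ATP carrier Slc25a5 stood at 0.69 ± 0.08, the phosphate carrier Slc25a3 at 0.54 ± 0.02 and the iron carrier mitoferrin, Slc25a37, at 0.71 ± 0.06. None of these 3 passed the 2-fold test, and they read above 0 on all 5 arrays. The aspartate-glutamate carriers Slc25a12 (0.03 ± 0.05) and Slc25a13 (0.07 ± 0.08) and the citrate carrier Slc25a1 (-0.05 ± 0.05) read close to 0. At the lower end, the NAD carrier Slc25a51 stood at -0.98 ± 0.11, the acylcarnitine carrier Slc25a20 at -0.66 ± 0.29 and the peroxisomal carrier Slc25a17 at -0.59 ± 0.05, and none passed.

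Sugar carriers held 1 higher and 0 lower genes among 11, with a median of 0.10. Slc2a1 encodes the glucose transporter GLUT1 of the blood-retina and blood-brain barriers and of photoreceptors. It read 1.42, 1.28, 1.30, 1.25 and 1.19, or 2.44-fold higher on the mean of its 2 probes (1.29 ± 0.09, adjusted p of limma 2.49e-03). The probes disagreed: 1 read 2.53 ± 0.16 and the other 0.05 ± 0.05, and with the lower one alone the gene did not pass (adjusted p 1). Vessel markers moved the same way, with Flt1 at 1.44 ± 0.08 and Kdr, also higher, at 1.16 ± 0.08, while Pecam1 (0.14 ± 0.17) did not pass. Their part in the Slc2a1 value was not tested. The other 10 sugar carriers lay between -0.21 and 0.27, among them the insulin-regulated Slc2a4 at -0.09 ± 0.04 and the inositol carrier Slc5a3 at 0.13 ± 0.08.

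Monocarboxylate carriers, which move lactate and pyruvate, had the highest class median, 0.97, but only 3 measured genes and 0 calls. Slc16a1, the widespread lactate carrier MCT1, read 1.07, 1.10, 1.06, 1.11 and 1.14 (1.10 ± 0.03), with an adjusted p of limma of 0.05004, just above the threshold and the only one of the 3 genes with an unadjusted p under it. Its probes stood at 0.52 and 1.68. Slc16a3, the lactate exporter MCT4, read 1.23, 1.41, 0.92, 0.73 and 0.54 (0.97 ± 0.36, adjusted p 1). All arrays lay above 0, over a range wider than that of Slc16a1. Slc16a13, a further family member, stood at 0.15 ± 0.04. Slc16a10, which carries aromatic amino acids and was counted with them, stood at -0.25 ± 0.26, and the median of all 4 SLC16 genes was 0.56. With the lower probe of Slc16a1, the class median was 0.52. Of the chaperones that take these carriers to the membrane, embigin, Emb, was higher at 1.31 ± 0.19 (adjusted p of limma 0.0335) and basigin, Bsg, stood at 0.43 ± 0.06 and did not pass.

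**Figure D3:**
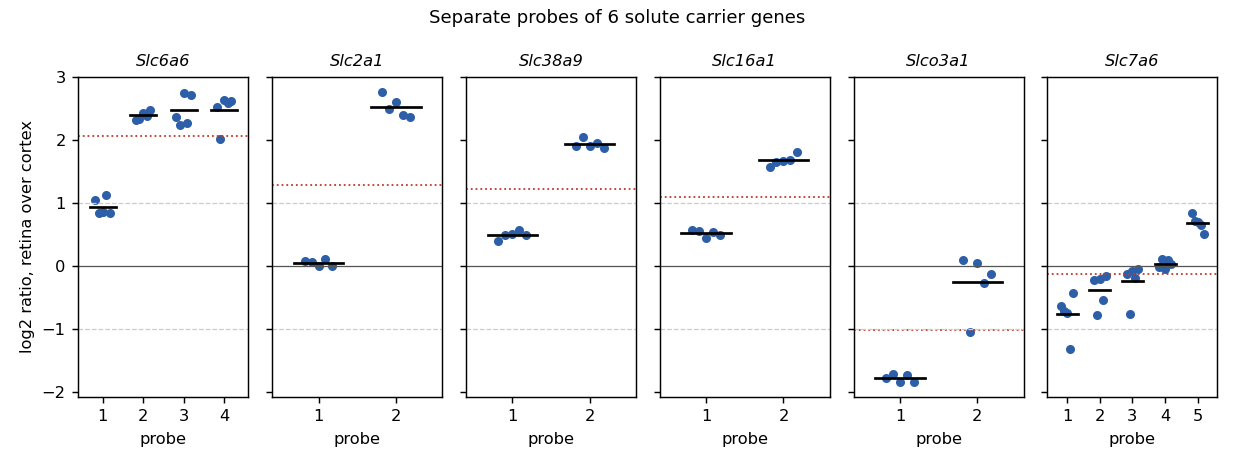
Log2 ratio of retina over cortex of each probe (5 arrays as points, mean as black bar) of 6 solute carrier genes, numbered from the lowest probe, with the gene mean as a dotted line and dashed lines at 2-fold. The probes of Slc2a1 read 0.05 and 2.53 and those of Slco3a1 -1.79 and -0.26, so the gene mean falls between separate probe levels.

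Chloride and calcium carriers moved in both directions. Slc12a5 encodes KCC2, the neuronal potassium-chloride cotransporter that keeps chloride low in mature neurons. It read 1.45, 1.51, 1.52, 1.47 and 1.83, or 2.94-fold higher in retina (1.56 ± 0.15, adjusted p of limma 9.03e-04), with array 5 above the other arrays. Its relatives Slc12a4 (KCC1, -0.43 ± 0.08), Slc12a7 (KCC4, 0.01 ± 0.15) and the kidney form Slc12a1 (0.18 ± 0.16) did not pass. Slc12a2, the chloride importer NKCC1 of young neurons, had no value on array 4 and was not tested. On arrays 1, 2, 3 and 5 it read -0.38, -0.52, 0.51 and -0.11, on both sides of 0. Markers of immature cortical neurons were lower in retina, with Dcx at -3.99 ± 0.04, and their part in the Slc12a5 value was not tested. The kinases that act on these carriers, Wnk1 (0.25 ± 0.06), Wnk2 (-0.42 ± 0.09), Stk39 (0.11 ± 0.02) and Oxsr1 (-0.07 ± 0.05), did not pass.

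Slc8a1, the sodium-calcium exchanger NCX1, read -1.44, -1.50, -1.18, -1.44 and -1.12, or 2.52-fold lower (-1.33 ± 0.17, adjusted p of limma 0.0180). Arrays 3 and 5 were closer to 0 than the other 3. The call held without array 3 or array 5 but not without any of the others: the adjusted p of limma was 0.0740 without array 1, 0.0532 without array 2 and 0.0814 without array 4.

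Of the metal carriers 11 of 17 genes lay below 0, against 4449 of all 8798 genes, and 1 was lower. Their median was -0.21, against -0.0048 over all genes, but it was -0.0012 on array 3. Slc39a8, the zinc and manganese importer ZIP8, read -1.39, -1.44, -1.46, -1.36 and -1.18, or 2.58-fold lower (-1.37 ± 0.11, adjusted p of limma 1.66e-03). All 5 arrays lay beyond 2-fold, with array 5 nearest to it. Of 7 measured zinc importers of the SLC39 family 5 lay below 0, among them Slc39a6 (-0.76 ± 0.61), read at 0.29 on array 3, and Slc39a10 (-0.55 ± 0.16), with all 4 probes below 0. The zinc exporter Slc30a7 read -0.43, -1.24, 0.38, -1.33 and -1.46, the widest spread between arrays of any solute carrier gene (SD 0.78). It was above 0 on array 3 and below 0 on the other 4, did not pass the 2-fold test, and lay below 0 by limma's test against 0 (adjusted p 0.0393). Iron export through ferroportin, Slc40a1, stood at -0.67 ± 0.21. Slc49a4, put here with its family, which includes heme exporters, stood at -0.96 ± 0.11. On the other side, the magnesium carrier Slc41a3 read 1.24, 1.12, 0.93, 1.21 and 0.94 (1.09 ± 0.15, adjusted p 1) and did not pass.

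**Figure D4:**
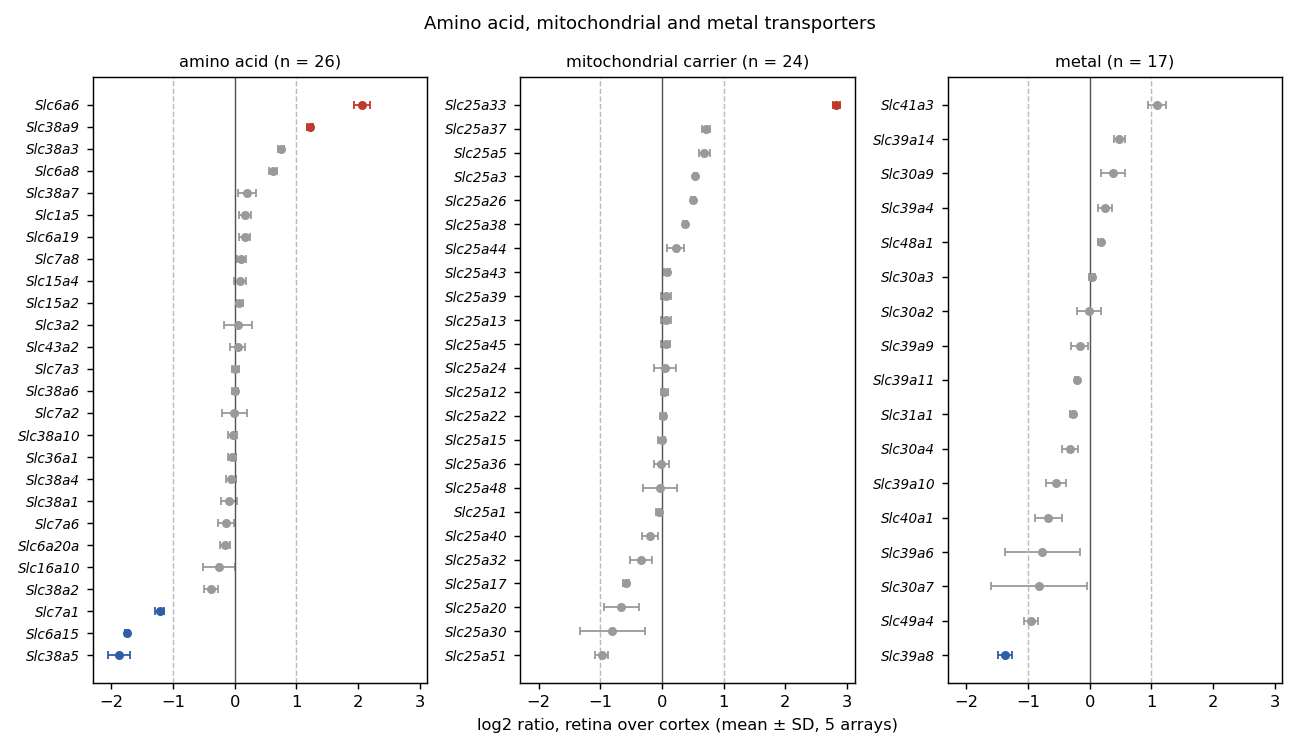
Mean log2 ratio ± SD over 5 arrays of every measured amino acid, mitochondrial and metal carrier gene, ordered within its class, with red for higher and blue for lower in retina by the 2-fold test. Slc25a33 stands alone at 2.82 among mitochondrial carriers. Of the metal carriers 11 of 17 lie below 0, against 4449 of all 8798 genes, and Slc30a7 has the longest error bar.

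Nucleotide sugar carriers feed glycosylation in the Golgi apparatus and endoplasmic reticulum. Of the 18 genes in this class 1 was lower. The 18 include Slc33a1 (0.34 ± 0.03), which carries acetyl-CoA instead. Slc35f1, a brain-expressed family member whose substrate is not settled, read -2.03, -1.93, -1.97, -1.95 and -2.05, or 3.96-fold lower (-1.99 ± 0.05, adjusted p of limma 1.19e-06), the lowest of all measured solute carriers. Its relative Slc35f2 stood at 0.18 ± 0.07. The rest lay between -0.65 and 0.75: the CMP-sialic acid carrier Slc35a1 at -0.41 ± 0.02 and the UDP-galactose carrier Slc35a2 at -0.06 ± 0.07 did not pass, nor did Slc35e4, of unknown substrate, at 0.75 ± 0.11. The class median was 0.07, and with the median probe of each gene it was -0.0174, so its sign rests on the probe rule. For the 17 SLC35 genes alone the median was 0.05.

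Transmitter carriers showed no call, by limma's 2-fold test or at its unadjusted p under 0.05 (0 of 5). All 5 measured genes of this class lay below 0, with a median of -0.23, against 4449 of all 8798 genes. Slc17a9, a vesicular nucleotide carrier counted with the phosphate and carboxylate carriers, stood above 0 on all 5 arrays, at 0.24 ± 0.08. The neuronal glutamate carrier Slc1a1 read -1.16, -1.41, -0.74, -1.02 and -0.78 (-1.02 ± 0.28, adjusted p of limma 1), with array 2 lowest. The vesicular glutamate carrier of ganglion cells and deep brain neurons, Slc17a6, stood at -0.27 ± 0.11. The proline carrier Slc6a7 (-0.23 ± 0.02), the vesicular monoamine carrier Slc18a1 (-0.19 ± 0.18) and the GABA carrier Slc6a13 (-0.11 ± 0.14) did not pass. The vesicular proton pump that drives vesicle filling had 11 measured genes, 0 called by limma, also 0 at an unadjusted p under 0.05, and 8 above 0, with a median of 0.30 and the highest, the accessory subunit Atp6ap2 and the subunit Atp6v1b2, both at 0.68 (SD 0.12 and 0.11).

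Slc1a2, Slc1a3, Slc17a7 and Slc32a1, the other main glutamate and GABA carriers of retina, were not analysed here. Of 36 carriers on a list of those well known in retina, 17 were in the annotation and 16 were measured. That list held 4 higher genes (Slco4a1, Slc6a6, Slc12a5 and Slc2a1) and 1 lower gene, Slc8a1, with a median of 0.37. Among all genes tested, 2.8% were called higher and 3.83% lower. The list was drawn up with earlier results of these data known, so its direction is no independent evidence.

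Acid-base and anion carriers also had 0 calls by limma among 10 genes, also 0 at an unadjusted p under 0.05, with a median of -0.07. The anion exchanger Slc4a3, which is expressed in retina, stood at -0.07 ± 0.02, and the bicarbonate carrier Slc4a10 at -0.06 ± 0.09. The sodium-proton exchanger Slc9b1 was farthest from 0, at -0.56 ± 0.45, and read between 0.01 and -1.05 on single arrays. Sodium gradients that drive many of these carriers depend on the sodium pump, of whose list 5 genes were measured. Its beta-2 subunit Atp1b2 was higher at 2.07 ± 0.09 and the regulator Fxyd6 lower at -1.43 ± 0.03, while Atp1b1 (0.18 ± 0.03), Atp1b3 (0.09 ± 0.07) and Fxyd3 (0.23 ± 0.14) did not pass. In the accessory list, Sgk1, a kinase that raises the surface level of several carriers, was also higher, at 2.36 ± 0.06.

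Carriers of vitamins, nucleosides and lipids had 0 of 17 genes called by limma, also 0 at an unadjusted p under 0.05, and a median of 0.02. The nucleoside carriers ENT1, Slc29a1 (-0.71 ± 0.11), and ENT2, Slc29a2 (0.42 ± 0.12), lay on opposite sides of 0 on all 5 arrays. Of the choline carrier family, Slc44a2 stood farthest from 0, at -0.78 ± 0.32, and was lowest on array 2, at -1.28. Slc44a1 (-0.28 ± 0.51) read on both sides of 0, and Slc44a4 (-0.30 ± 0.45) was also lowest on array 2, at -1.08. The vitamin C carriers Slc23a1 (0.14 ± 0.03) and Slc23a2 (0.01 ± 0.03), the thiamine carrier Slc19a2 (0.22 ± 0.09) and the folate carrier Slc19a1 (-0.20 ± 0.08) did not pass. Phosphate and carboxylate carriers (5 genes, 0 calls by limma and 0 at an unadjusted p under 0.05, median 0.24) lay between -0.32, for the sulfate carrier Slc13a4, and 0.29. Their median is the value of Slc17a9, the vesicular nucleotide carrier placed in this class. The urea carrier Slc14a1, in no larger class, stood at 0.24 ± 0.02, and Slc66a2 at -0.12 ± 0.04. Meningeal genes that accompany Slc6a13 and Slc13a4 in brain were lower in retina, Dcn at -1.35 ± 0.21 and Postn at -1.86 ± 0.27, while Col1a1 of the same list stood above 0, at 0.52 ± 0.05, and did not pass. Their part in these values was not tested.

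Side by side, the 12 classes with at least 3 genes differed little in their medians. These ran from -0.23 for transmitter carriers to 0.24 for phosphate and carboxylate carriers, with the 3 monocarboxylate carriers apart at 0.97. The value of 0.24 is that of Slc17a9, a vesicular nucleotide carrier that could also be counted with the transmitter carriers. Over single arrays the monocarboxylate median ran from 0.54 to 1.10. The metal median ran from -0.28 to -0.00 and overlapped that of transmitter carriers, from -0.39 to -0.12. The sugar median ran from 0.01 to 0.16, below the phosphate and carboxylate median on every array, from 0.17 to 0.30. In 7 of the 12 classes at least 1 gene was called, and in 3 of these, amino acid, cation-chloride and calcium, and organic ion carriers, calls went both ways. At the 6.63% called over all genes tested, classes of these sizes would hold few or no calls. No test of one class against another was made, since genes are not replicates.

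Of the 167 genes, 7 lacked a value on some array and were not tested: Slc12a2, Slc20a2, Slc22a15, Slc2a5, Slc39a1, Slc45a3 and Slc7a7. Slc45a3, of a family of sugar carriers, had the largest ratio of these, at -0.50, -1.08, -1.63 and -1.30 on arrays 1, 2, 3 and 5. The others read between -0.12 and 0.46 on average, with both signs among the arrays of 4 of them. A pair of symbols match the pattern but name no carrier, the scaffold gene Slc9a3r1 (0.13 ± 0.13) and Slc4a1ap (-0.01 ± 0.06), and neither was called.

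Of the measured genes, 32 had several probes. The probes differed in sign in 17 of these, and their range had a median of 0.43. Over all genes, 850 of the 2086 with several probes differed in sign, with a median range of 0.38. Among the 13 called genes, 3 had several probes, Slc6a6, Slc2a1 and Slc38a9, and 10 rest on 1 probe. On array 2, 12 of the 160 genes (7.5%) read more than 0.5 below the median of the other arrays, against 5.11% of all genes, and on arrays 1 and 3 none did (0.61% and 0.07% of all genes). None of the 13 called genes was among these 12, but the 2-fold test itself favours genes with a small spread between arrays. With arrays 2, 3 and 5 alone, a setting chosen after seeing the data, 9 of the 13 calls remained, and Slc22a23, Slc39a8, Slc7a1 and Slc8a1 were lost. The part of array 2 in the wider SDs was not tested.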

How the data were processed

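The deposited table held 1 column per array and 21446 probes. Per the labels, each array carried retina RNA in Cy5 and cortex RNA in Cy3. The authors' deposited values were read as log10 ratios, with base, direction, background correction and centring not given in the sources used here. They were multiplied by 3.32 to log2, and an exact 0 was read as no value. Probes with 1 symbol were named through RefSeq (11782 probes), and probes complete over the 5 arrays were averaged per gene. limma 3.58.1 in R 4.3.3 fitted an intercept, tested with treat at 2-fold and with eBayes against 0, two-sided, with Benjamini-Hochberg adjustment over 8798 genes. The procedure was tested on simulated data. The number of arrays limits the precision.

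Named by rule are all called members with 1 sign on all arrays, the farthest uncalled member of each class, measured members of the retina list, the 2 farthest genes of each other list and related genes called in opposite directions; further examples were chosen after their values were seen. Substrate classes were assigned by the substrate of the gene or its family, so SLC5, SLC6, SLC16 and SLC17 genes fall in several classes. Slc17a9 and Slc33a1 sit in classes that do not name their own substrate. The members and lists were chosen with earlier results of these data known. Alternatives covered probe rule, missing values, centring, scaling, quantile normalization, prior, weights, minimum fold, membership, log base and arrays left out.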

Additional observations from a re-analysis of the deposited data

Results flagged for a closer look

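For Slc12a5, array 5 gave 1.83, above a range of 1.45 to 1.52 for the rest. For Slc22a23, array 5 gave -1.12, whereas the rest spanned -1.29 to -1.26. For the GABA carrier Slc6a13, array 2 gave -0.36, below a span of -0.08 to -0.02. In each case 1 array lay far from the other 4, and the sign was the same on all 5. Among the 35 genes named by rule and 12 class medians checked in this way 3 were found, where chance gives about 5%. Other genes given above also had such an array, among them Slc40a1 and Slc44a4, low on array 2, and Slc39a6, high on array 3. Over all 160 measured solute carrier genes, 19 (11.9%) had such an array, 5 of them with array 2 as the low one and 4 with array 5 as the high one.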

How the results depend on the processing

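The base and direction of the ratios are not stated, and probes of 1 gene can disagree, so single-probe genes carry a limit that the arrays do not show. With single arrays omitted, 12 to 13 solute carrier genes were called (6 higher each time, 6 to 7 lower), and 528 to 562 of all genes. The organic ion median then ran from -0.18 (without array 3) to -0.0743, and the phosphate and carboxylate median from 0.16 (without array 4) to 0.25. With arrays 2, 3 and 5 only, chosen after seeing the data, 3 were lower, since Slc22a23, Slc39a8, Slc7a1 and Slc8a1 no longer passed, and the phosphate and carboxylate median was 0.17. A minimum of 1.5-fold gave 1408 genes (615 higher, 793 lower) and 22 solute carriers (11 higher, 11 lower), as follows from the lower minimum. If the deposited values were log2 already, limma called 7 genes (3 higher, 4 lower) and 0 solute carriers, with 0 at an unadjusted p under 0.05, because every ratio shrinks. Medians then were -0.0696 for transmitter, 0.0291 for sugar, 0.0225 for nucleotide sugar, 0.29 for monocarboxylate, -0.0214 for acid-base, -0.0634 for metal and 0.0735 for phosphate and carboxylate carriers.

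Taking the median probe (of 2, the lower) gave a solute carrier median of -0.00769. Class medians were -0.0174 for nucleotide sugar, 0.52 for monocarboxylate, -0.13 for acid-base, -0.21 for cation-chloride and calcium and -0.19 for organic ion carriers. Slc2a1 and Slc38a9 no longer passed and Slco3a1 did. Slc7a1 no longer passed with scaled arrays, nor Slc8a1 without array 1, 2 or 4. Phosphate and carboxylate carriers had a median of 0.14 with values on at least 3 arrays and 0.16 with exact 0 read as 0. The other 280 alternative values of counts and medians stayed within 1.5 times or within the spread between arrays, and no called gene changed sign under any of them. No paired analysis was possible because the arrays form 1 group.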
